A study of Homo sapiens with 9 samples.

Results

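The NF-κB subunit genes and the genes of their feedback inhibitors were followed in TE13 cells, an established line of human esophageal squamous cell carcinoma (ESCC), by RNA-seq. Genes were taken by symbol, in a choice made with earlier results of these data known. The 10 genes are the subunits NFKB1, NFKB2, RELA, RELB and REL, the IκB genes NFKBIA and NFKBIE, the ubiquitin-editing enzyme TNFAIP3 (A20), and the inhibitor of apoptosis ubiquitin ligases BIRC2 and BIRC3 (cIAP1 and cIAP2). Each is 1 of the 60605 rows of the deposited gene table, and all 10 were among the 21395 genes tested. Cells received a control siRNA or 1 of a pair of siRNAs to PARylator (PARylator siRNA.1 and PARylator siRNA.2), and each condition has 3 of the 9 libraries. No other agent or allele is named for any group, and the time after transfection is not given in the sources used here.

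PARylator is the name the study gives to LINC00885, a long noncoding RNA that it linked to PARP1 activity and DNA repair. LINC00885 (ENSG00000224652) had 6, 7 and 12 counts in the control siRNA libraries. It had 4, 5 and 2 counts with siRNA.1, a log2 fold change of -1.21 (SE 0.945, adjusted p = 0.376, edgeR). With siRNA.2 it had 2, 0 and 4 counts, a log2 fold change of -2.33 (SE 1.01, adjusted p = 0.0659, edgeR). The targeted transcript was counted too rarely here for either difference to pass the test, so the conditions are named by their labels throughout. The study itself reported the knockdown in TE13 cells by qPCR, which is not part of these counts.

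NF-κB is a family of dimeric transcription factors that share a Rel homology domain. In resting cells the dimers are held in the cytoplasm by IκB proteins, and inflammatory receptors release them through the IκB kinase (IKK) complex, which marks IκB for degradation. In the alternative pathway the kinase NIK (MAP3K14) drives processing of the NFKB2 precursor p100 to p52, which pairs with RelB, while cIAP1 and cIAP2 keep NIK low. NFKBIA, NFKBIE, TNFAIP3 and BIRC3 are themselves textbook targets of NF-κB and so form feedback loops. In squamous epithelium and its tumors the pathway is best known for driving inflammatory cytokines and survival genes.

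The promoters of these genes show the DNA element that NF-κB binds, the degenerate 10-base κB consensus, which was searched on both strands from 250 bases before to 50 after each transcription start in RefSeq (GRCh38.p14). Of 35116 such windows, 3956 (11.3%) held a match, and of 11880 tested genes with a window, 2040 (17.2%) did. Windows were at hand for 8 of the 10 genes, and 6 of the 8 (75.0%) held a match, the exceptions being RELA and BIRC2. RELB and NFKBIE had no window. The stretches below are shown because the genes that carry them moved in both directions in the RNA. Each is 30 bases, read 5′ to 3′ in the direction of its gene, and capitals mark the match.
NFKB1, chr4:102501300-102501329, plus strand: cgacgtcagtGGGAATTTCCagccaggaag
NFKB2, chr10:102394461-102394490, plus strand: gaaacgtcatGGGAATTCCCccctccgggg
NFKB2, chr10:102395674-102395703, plus strand: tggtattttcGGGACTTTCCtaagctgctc
REL, chr2:60881517-60881546, plus strand: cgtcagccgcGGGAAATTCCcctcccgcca
NFKBIA, chr14:35404811-35404840, minus strand: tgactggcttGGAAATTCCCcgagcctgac
TNFAIP3, chr6:137867182-137867211, plus strand: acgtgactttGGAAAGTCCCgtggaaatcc
BIRC3, chr11:102317275-102317304, plus strand: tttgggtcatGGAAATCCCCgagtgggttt
BIRC3, chr11:102317339-102317368, plus strand: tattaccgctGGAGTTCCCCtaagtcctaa

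In GENCODE release 44 the stretches of NFKB1, NFKBIA, TNFAIP3 and BIRC3 lie outside the span of their gene, on its upstream side. That of REL and the first of NFKB2 are exonic in at least 1 transcript of the gene, and the second of NFKB2 overlaps an exon by 11 bases. The matches began 49 bases before the transcription start in NFKB1, 107 before 1 start of NFKB2 and 21 before another, 47 in REL, 81 in NFKBIA, 67 in TNFAIP3, and 199 and 135 in BIRC3. TNFAIP3 held another match 55 bases before its start, and NFKB2 held others 78 bases before the first of its starts and 176 before the second. Matches that overlap those shown are not listed. A match is a description of the letters, and binding was not measured here.

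The libraries held between 15337917 and 22559998 counts on genes. Within a condition, libraries differed beyond counting noise (chi-square over degrees of freedom 2.76 to 4.65 across genes). The labels number the libraries without naming separate cultures. The study calls its TE13 RNA-seq 3 experimental repeats and does not describe them further. The p-values measure the spread between these libraries, which may be technical. All 9 markers of squamous epithelium were at 1 FPKM (the count scaled by exonic length and library total) or more in every condition, with a summed level of 950 to 970 FPKM with control siRNA, 752 to 783 after siRNA.1 and 744 to 762 after siRNA.2. The 10 blood cell markers summed to 5.54 to 6.63 FPKM with control siRNA, 7.89 to 8.81 after siRNA.1 and 7.41 to 8.73 after siRNA.2, with MS4A1 at 0 throughout. Within that sum LYZ, PTPRC, FCER1G and CSF1R rose with both siRNAs, LYZ by 3.08 and 3.24 on the log2 scale from 0.317 FPKM, and LAPTM5 fell. Of the squamous markers, TP63, KRT5, KRT17, SFN and CDH1 fell with both, KRT5 from 142 FPKM to 40 and 55.8, while KRT6A, EPCAM and DSG3 rose. The 5 fibroblast markers summed to at most 2.49 FPKM and the 3 endothelial markers to at most 1.54, both highest with control siRNA. Mitochondrial transcripts made up 7.46% to 7.66% of each control siRNA library, against 4.99% to 5.06% after siRNA.1 and 5.54% to 5.56% after siRNA.2. The part of these shifts in the results was not tested. In bulk RNA, fewer cells that express a gene and less of its RNA per cell cannot be told apart.

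With control siRNA the inhibitors TNFAIP3 and NFKBIA had the highest levels of the 10 genes, at 57.4 ± 3.66 and 57.2 ± 2.37 FPKM (SD, n = 3), and their ranges overlapped. RELA at 30.2 ± 1.38, BIRC2 at 30.1 ± 0.535 and NFKB2 at 29.7 ± 0.753 FPKM came next and overlapped with each other. BIRC3 at 19.7 ± 0.89 FPKM lay above NFKB1 at 16.6 ± 0.892 FPKM without overlap. NFKBIE at 10.7 ± 0.848 and RELB at 9.15 ± 0.878 FPKM overlapped, and REL was lowest at 2.22 ± 0.222 FPKM. Of all genes tested, 97.1% had a lower mean level over the 9 libraries than TNFAIP3, and 50.7% a lower one than REL.

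With siRNA.1 and with siRNA.2 the order at the top became TNFAIP3, NFKBIA, NFKB2, RELA and BIRC2, with no overlap between neighbours in either condition. NFKB2 thus stood above RELA in FPKM in every siRNA.1 and siRNA.2 library. In raw counts NFKB2 was the lower in siRNA.1 replicates 1 (3175 against 3185) and 2 (2625 against 2683). It was the higher in the other siRNA.1 and siRNA.2 libraries. BIRC3 stayed above NFKB1 with siRNA.1, while with siRNA.2 NFKB1 stood above BIRC3, again without overlap. RELB and NFKBIE overlapped in all 3 conditions.

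**Figure D1:**
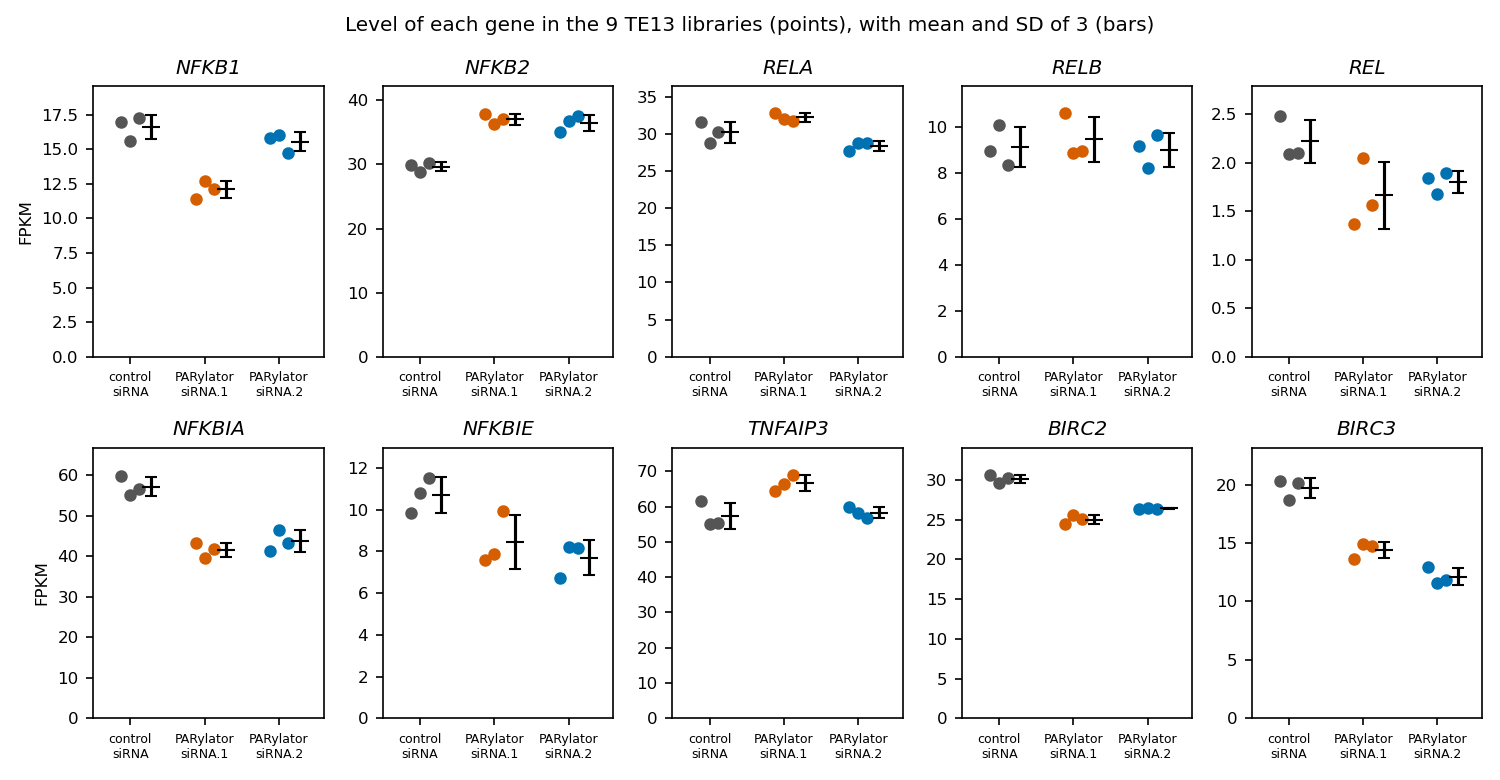
Level of each of the 10 genes in FPKM (vertical axis, from 0) in the 9 TE13 libraries, grouped by siRNA. Points are libraries and bars give the mean and SD of 3. BIRC3 and NFKBIA lie lower with both PARylator siRNAs than in every control siRNA library, NFKB2 lies higher, and NFKB1 is low in the siRNA.1 libraries alone.

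Against control siRNA, 8 of the 10 genes passed the test with siRNA.1, where 30.3% of all genes tested did. NFKB2 and TNFAIP3 rose, and NFKB1, REL, NFKBIA, NFKBIE, BIRC2 and BIRC3 fell. With siRNA.2, 6 of the 10 passed, where 30.9% of all genes did. NFKB2 rose and REL, NFKBIA, NFKBIE, BIRC2 and BIRC3 fell. These 6 passed in the same direction with both siRNAs, which 21.2% of all genes tested did. Of the 6, 5 fell, as 10.2% of all genes did with both siRNAs, and 1 rose, as 11.1% did. The 10 genes have higher levels than most, and among the 12532 genes whose mean reached 1 FPKM the shares that passed were 46.4% after siRNA.1 and 47.2% after siRNA.2. For these 12532 genes the share in the same direction with both siRNAs was not computed. The 10 genes had a median log2 fold change of -0.33 for siRNA.1 and of -0.15 for siRNA.2, and all genes tested had -0.000565 and 0.00401. The comparisons share the control siRNA libraries and so are not independent of each other.

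**Figure D2:**
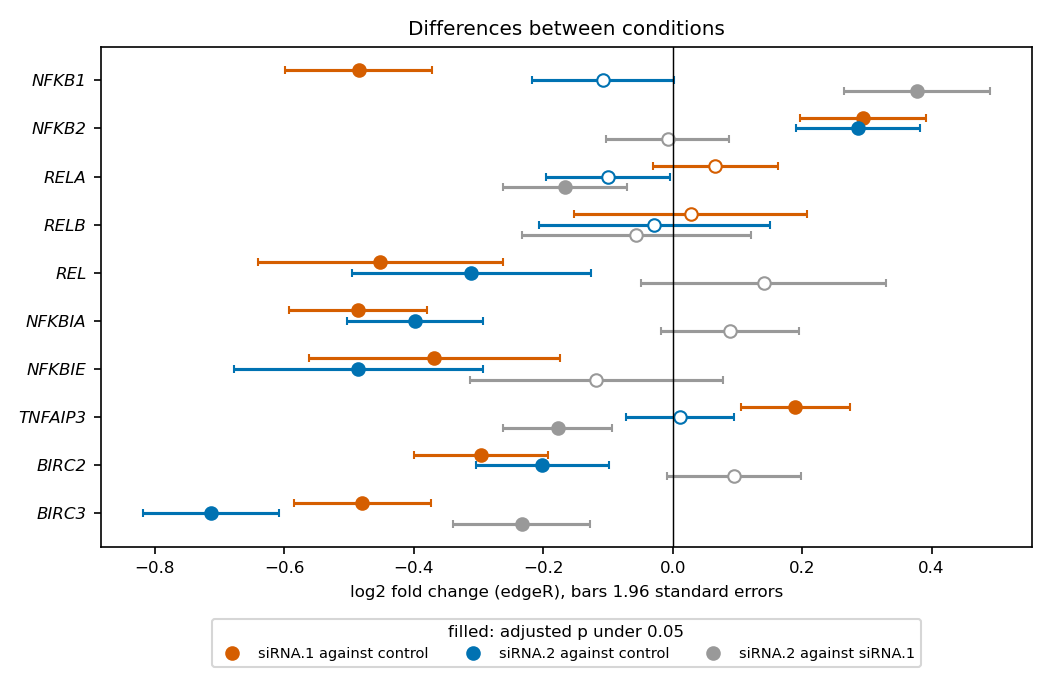
Log2 fold change from edgeR (horizontal axis) of each gene, by color for either PARylator siRNA compared with control siRNA and for siRNA.2 minus siRNA.1. Bars are 95% intervals and filled points have an adjusted p under 0.05. BIRC3 shows the lowest value, -0.71 with siRNA.2, and RELB has no filled point.

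Of the subunits, NFKB1 (ENSG00000109320, chr4:102501331-102617302, plus strand of GRCh38 as deposited) encodes p105, the precursor of p50, the usual partner of RelA. Its level was 16.95, 15.59 and 17.27 FPKM with control siRNA, 11.44, 12.72 and 12.14 with siRNA.1, and 15.8, 16.06 and 14.77 with siRNA.2. All siRNA.1 libraries lay below the other 6 libraries, while those of siRNA.2 overlapped with control siRNA. NFKB1 fell with siRNA.1, by 28.6% (log2 fold change -0.49, SE 0.058, adjusted p = 1.31e-15, edgeR). With siRNA.2 the log2 fold change was -0.11 (SE 0.056, adjusted p = 0.143, edgeR). The direct comparison of the siRNAs passed the test, with a log2 difference of 0.38 for siRNA.2 minus siRNA.1 (SE 0.057, adjusted p = 3.33e-09, edgeR).

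NFKB2 (ENSG00000077150, chr10:102394110-102402524, plus strand) encodes p100, which acts as an IκB until it is processed to p52. It was the only subunit gene to rise in either comparison with control siRNA. Its level was 29.89, 28.81 and 30.26 FPKM with control siRNA, 37.92, 36.22 and 37.02 with siRNA.1, and 34.99, 36.79 and 37.52 with siRNA.2. Every PARylator siRNA library lay above every control siRNA library. The level was 1.23-fold that of control siRNA with siRNA.1 (log2 fold change 0.29, SE 0.050, adjusted p = 3.67e-08, edgeR) and 1.22-fold with siRNA.2 (log2 fold change 0.29, SE 0.049, adjusted p = 6.66e-08, edgeR). Between the siRNAs the log2 difference was -0.0079, with a 95% interval of -0.10 to 0.09.

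RELA (ENSG00000173039, chr11:65653597-65663090, minus strand) encodes p65, the transactivating subunit of the classical dimer. Its level was 31.55, 28.8 and 30.17 FPKM with control siRNA, 32.85, 31.97 and 31.76 with siRNA.1, and 27.63, 28.75 and 28.71 with siRNA.2. The siRNA.1 libraries lay above and the siRNA.2 libraries below the whole control siRNA range, by margins smaller than that range. Neither difference from control siRNA passed the test, with log2 fold changes of 0.07 (adjusted p = 0.343, edgeR) and -0.10 (adjusted p = 0.111, edgeR). The siRNAs differed from each other by -0.17 for siRNA.2 minus siRNA.1 on the log2 scale (SE 0.049, adjusted p = 0.0081, edgeR). That call was lost without siRNA.2 replicate 1 (adjusted p = 0.0751, edgeR).

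RELB (ENSG00000104856, chr19:45001449-45038198, plus strand) encodes the partner of p52 in the alternative pathway. Its level was 8.97, 10.1 and 8.37 FPKM with control siRNA, 10.6, 8.89 and 8.94 with siRNA.1, and 9.16, 8.21 and 9.67 with siRNA.2. The 3 conditions overlapped. The log2 fold change was 0.03 with siRNA.1 (95% interval -0.15 to 0.21) and -0.03 with siRNA.2 (95% interval -0.21 to 0.15). Neither passed the test, and a change within these bounds was not excluded.

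REL (ENSG00000162924, chr2:60881521-60931612, plus strand) encodes c-Rel, best known from lymphocytes. It had the lowest level of the subunit genes, 2.48, 2.09 and 2.1 FPKM with control siRNA, 1.37, 2.05 and 1.57 with siRNA.1, and 1.84, 1.68 and 1.9 with siRNA.2. All 6 PARylator siRNA libraries lay below the control siRNA libraries, siRNA.1 replicate 2 by a narrow margin. REL fell with siRNA.1 (log2 fold change -0.45, SE 0.097, adjusted p = 2.48e-05, edgeR) and with siRNA.2 (log2 fold change -0.31, SE 0.094, adjusted p = 0.00446, edgeR). Without control siRNA replicate 1 the siRNA.2 value was -0.23 and no longer passed (adjusted p = 0.098, edgeR), and with limma on log2(FPKM + 0.1) neither call held (adjusted p = 0.0778 and 0.219). In GENCODE release 44, 33.3% of the exonic bases of REL are shared with a lncRNA gene on the same strand (ENSG00000267520), which had 0 counts in every library. How reads in bases shared by genes were counted is not given. The 0 therefore does not show that the lncRNA was absent, and the level of REL may be understated.

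The summed level of the 5 subunit genes was 87.8 ± 2.25 FPKM with control siRNA, 92.5 ± 1.48 after siRNA.1 and 91.2 ± 1.6 after siRNA.2 (SD, n = 3). The makeup of that sum differed more than its size. NFKB2 took 33.3%, 33.7% and 34.3% of it with control siRNA, 40.3%, 39.4% and 40.5% with siRNA.1, and 39.1%, 40.2% and 40.5% with siRNA.2. The share of NFKB1 was 18.9% ± 0.666 with control siRNA, 13.1% ± 0.866 after siRNA.1 and 17.1% ± 0.958 after siRNA.2, and that of RELA 34.4% ± 0.705, 34.8% ± 0.0715 and 31.1% ± 0.276. RELB held between 8.97% and 11.8% of the sum in every library and REL between 1.45% and 2.76%. The sum, the shares and the size of any ratio between genes rest on the deposited exonic lengths.

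The ratio of NFKB2 to NFKB1 FPKM was 1.76, 1.85 and 1.75 in the control siRNA libraries, 3.31, 2.85 and 3.05 with siRNA.1, and 2.21, 2.29 and 2.54 with siRNA.2. The 3 conditions did not overlap in this ratio. The exact 2-sided permutation test gave p = 0.1 for each pair of conditions, the smallest value that 3 against 3 libraries allow. Ratios of RNA say nothing of the processed proteins.

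Among the IκB genes, NFKBIA (ENSG00000100906, chr14:35401513-35404749, minus strand) encodes IκBα, the inhibitor that is degraded and made again in each round of signalling. Its level was 59.75, 55.09 and 56.69 FPKM with control siRNA, 43.21, 39.67 and 41.86 with siRNA.1, and 41.33, 46.56 and 43.3 with siRNA.2. All 6 PARylator siRNA libraries lay well below the control siRNA range. NFKBIA fell by 28.6% with siRNA.1 (log2 fold change -0.49, SE 0.054, adjusted p = 1.51e-17, edgeR) and fell by 24.1% with siRNA.2 (log2 fold change -0.40, SE 0.054, adjusted p = 2.49e-12, edgeR). The siRNAs differed by 0.09 on the log2 scale, with a 95% interval of -0.02 to 0.19. Set against RELA, whose product IκBα holds back, the ratio of NFKBIA to RELA FPKM was 1.89, 1.91 and 1.88 with control siRNA, 1.32, 1.24 and 1.32 with siRNA.1, and 1.5, 1.62 and 1.51 with siRNA.2. The conditions did not overlap in this ratio either (exact 2-sided permutation p = 0.1 for each pair, the smallest possible).

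NFKBIE (ENSG00000146232, chr6:44258166-44265788, minus strand) encodes IκBε, a slower feedback inhibitor. Its level was 9.83, 10.79 and 11.52 FPKM with control siRNA, 7.57, 7.86 and 9.94 with siRNA.1, and 6.75, 8.21 and 8.16 with siRNA.2. The siRNA.2 libraries lay below the control siRNA range, and siRNA.1 replicate 3 overlapped with it. NFKBIE fell with siRNA.1 (log2 fold change -0.37, SE 0.099, adjusted p = 0.00114, edgeR) and with siRNA.2 (log2 fold change -0.49, SE 0.098, adjusted p = 6.37e-06, edgeR), of which the first was lost with limma on log2(FPKM + 0.1) (adjusted p = 0.0617). The siRNAs differed by -0.12 on the log2 scale, with a 95% interval of -0.31 to 0.08.

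TNFAIP3 (ENSG00000118503, chr6:137867214-137883312, plus strand) encodes A20, which removes and edits the ubiquitin chains that carry TNF and Toll-like receptor signals to IKK. Its level was 61.6, 55.18 and 55.36 FPKM with control siRNA, 64.45, 66.48 and 69.02 with siRNA.1, and 59.99, 58.13 and 56.72 with siRNA.2. The siRNA.1 libraries lay above all others, and the siRNA.2 libraries lay within the control siRNA range. TNFAIP3 rose 1.14-fold with siRNA.1 (log2 fold change 0.19, SE 0.043, adjusted p = 7.85e-05, edgeR). With siRNA.2 the log2 fold change was 0.01, with a 95% interval of -0.07 to 0.10. The direct comparison passed, with a log2 difference of -0.18 for siRNA.2 minus siRNA.1 (SE 0.043, adjusted p = 6.48e-04, edgeR). TNFAIP3 and NFKBIA, at like levels with control siRNA, thus parted with the PARylator siRNAs, and the NFKBIA to TNFAIP3 ratio was 0.997 ± 0.027 with control siRNA, 0.625 ± 0.04 after siRNA.1 and 0.751 ± 0.057 after siRNA.2 (SD, n = 3).

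BIRC2 and BIRC3 lie side by side on chromosome 11, with 7807 bases between them in GENCODE release 44. Their proteins add ubiquitin to RIPK1 at the TNF receptor and target NIK for degradation. BIRC2 (ENSG00000110330, chr11:102347211-102378670, plus strand) was at 30.61, 29.56 and 30.26 FPKM with control siRNA, 24.4, 25.56 and 25.12 with siRNA.1, and 26.37, 26.51 and 26.4 with siRNA.2. The 3 conditions did not overlap. BIRC2 fell by 18.6% with siRNA.1 (log2 fold change -0.30, SE 0.053, adjusted p = 2.73e-07, edgeR) and to 0.87 times the control siRNA level with siRNA.2 (log2 fold change -0.20, SE 0.052, adjusted p = 7.03e-04, edgeR). The siRNAs differed by 0.09 on the log2 scale, with a 95% interval of -0.01 to 0.20.

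BIRC3 (ENSG00000023445, chr11:102317450-102339403, plus strand) had the largest F statistic of the 10 genes over the 3 conditions. Its level was 20.34, 18.7 and 20.12 FPKM with control siRNA, 13.63, 14.89 and 14.76 with siRNA.1, and 12.99, 11.56 and 11.85 with siRNA.2. No condition overlapped with another, and siRNA.2 was the lowest. BIRC3 fell by 28.3% with siRNA.1 (log2 fold change -0.48, SE 0.054, adjusted p = 1.38e-17, edgeR) and fell by 39.0% with siRNA.2 (log2 fold change -0.71, SE 0.054, adjusted p = 2.34e-38, edgeR). The difference between the siRNAs also passed, at -0.23 for siRNA.2 minus siRNA.1 (SE 0.054, adjusted p = 3.91e-04, edgeR).

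Within each library BIRC3 was lower relative to its neighbour with the PARylator siRNAs. The BIRC3 to BIRC2 ratio was 0.664, 0.633 and 0.665 with control siRNA, 0.559, 0.583 and 0.588 with siRNA.1, and 0.493, 0.436 and 0.449 with siRNA.2. The conditions did not overlap (exact 2-sided permutation p = 0.1 for each pair, the smallest possible). The genes share 11 stretches of 50 bases in their transcripts, 0.225% of those of BIRC2 and 0.144% of those of BIRC3.

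Set beside all genes, the fall of BIRC3 with siRNA.2 was larger in absolute log2 fold change than that of 76.9% of all genes tested, the highest such share of the 10 genes against control siRNA. The falls of NFKB1 and NFKBIA with siRNA.1 were larger than 65.9% of all genes. These shares include genes under 1 FPKM, where few counts can give large values. They were not computed for the genes whose mean reached 1 FPKM. Between the siRNAs, 4 of the 10 genes passed the test (NFKB1 higher with siRNA.2, where 6.10% of all genes were, and RELA, TNFAIP3 and BIRC3 lower, where 6.06% were). In either direction 12.2% of all genes tested and 20.2% of those whose mean reached 1 FPKM passed.

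Likeness to BIRC3 was read from log2(CPM + 1), with CPM the count scaled by library total and by the scaling factor of edgeR (TMM). Over the 9 libraries it was high for YPEL5 (r = 0.989), EXOC6B (0.986), AP1G1 (0.986) and ANXA8L1 (0.985) among 7257 other genes whose mean reached 5 FPKM. YPEL5 was at 18.9 FPKM with control siRNA, 13.7 after siRNA.1 and 11.3 after siRNA.2. ANXA8L1 has near-identical paralogs, so its values are uncertain. For pairs among the 9 genes other than REL, whose mean lies under 5 FPKM, r was between -0.90 (BIRC3 and NFKB2) and 0.95 (BIRC2 and NFKBIA). The 9 points fall into 3 conditions, share library and depth, and are given as a description.

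Other genes of the pathway were read from lists written with earlier results of these data known, and genes in the lists named here beyond MAP3K14 and those with both log2 fold changes of at least 0.5 in size were chosen after their values were seen. Counts in these lists stand beside the shares of all genes tested that passed, 30.3% and 30.9% with siRNA.1 and siRNA.2 (46.4% and 47.2% where the mean reached 1 FPKM), and 21.2% in the same direction with both. The last share was not computed for genes whose mean reached 1 FPKM. Of the 4 other IκB genes, NFKBIZ alone passed after siRNA.1, and after siRNA.2 NFKBIB and NFKBIZ rose and BCL3 fell, 1 and 3 of 4 against those shares. NFKBIZ, an IκB protein that works in the nucleus on secondary response genes, rose with siRNA.1 (log2 fold change 0.47, adjusted p = 1.29e-06, edgeR) and siRNA.2 (0.55, adjusted p = 5.84e-09, edgeR), opposite in direction to NFKBIA and NFKBIE.

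Of 7 kinase genes around IKK, MAP3K14 and MAP3K7 fell with both siRNAs, IKBKB rose with siRNA.1, and the others did not pass, which makes 3 and 2 of 7 against 30.3% and 30.9% of all genes. Without siRNA.2 replicate 2, only 1 of the 7 passed with siRNA.2. MAP3K14 (NIK, ENSG00000006062, on chromosome 17), the kinase that BIRC2 and BIRC3 proteins restrain, was at 6.72, 6.62 and 6.2 FPKM with control siRNA, 3.9, 4.18 and 4.63 with siRNA.1, and 3.77, 3.82 and 3.96 with siRNA.2. Every PARylator siRNA library lay below every control siRNA library. The log2 fold change was -0.65 with siRNA.1 (SE 0.092, adjusted p = 3.52e-11, edgeR) and -0.77 with siRNA.2 (SE 0.091, adjusted p = 8.51e-16, edgeR). NIK is regulated mainly through its protein, which was not measured here.

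Of 14 adaptors and ubiquitin enzymes of TNF and Toll-like receptor signalling, 8 passed in the same direction with both siRNAs, against 21.2% of all genes tested. That share includes genes under 1 FPKM. TRAF3, TAB1, RBCK1 and SHARPIN rose, and RIPK1, TRAF1, TAB3 and XIAP fell. TRAF3, which ties NIK to the cIAP proteins, went from 9.3 ± 0.269 FPKM with control siRNA to 12.5 ± 0.689 after siRNA.1 and 13.5 ± 0.528 after siRNA.2 (SD, n = 3). RBCK1 and SHARPIN encode parts of the linear ubiquitin ligase, and RBCK1 rose by 0.55 on the log2 scale with siRNA.1 and by 0.42 with siRNA.2. XIAP, a relative of BIRC2 and BIRC3 that blocks caspases directly, had log2 fold changes of -0.48 and -0.38. The median over the 14 genes was -0.02 with each siRNA.

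Of 7 other brakes on the pathway, OTULIN and RNF11 fell and TNIP1 rose with both siRNAs, and CYLD, TNIP2 and TAX1BP1 fell with siRNA.2, which makes 3 and 6 of 7 against 30.3% and 30.9% of all genes. OTULIN, which takes linear ubiquitin chains apart, had log2 fold changes of -0.36 after siRNA.1 and -0.41 after siRNA.2, and RNF11, a partner of A20, -0.43 and -0.34. The median over the list was -0.12 after siRNA.1 and -0.30 after siRNA.2.

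Target genes of NF-κB moved in both directions. Of 29 on the list, 28 were tested, and VCAM1 was left out for its low level. With siRNA.1, 14 rose, 8 fell and 6 did not pass, and with siRNA.2, 13 rose, 8 fell and 7 did not pass. Of all genes tested, 15.0% rose and 15.2% fell with siRNA.1, and 15.8% and 15.1% with siRNA.2. In the same direction with both siRNAs, 12 rose and 5 fell, against 11.1% and 10.2% of all genes. The median log2 fold change was 0.20 after siRNA.1 and 0.12 after siRNA.2. Of 26 target genes with a RefSeq window, 15 (57.7%) held a κB match, against 17.2% of tested genes with a window. The 15 include VCAM1, which was not tested. The list was made of NF-κB targets, so this share is not a result of these data.

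CXCL10, a chemokine that interferons induce together with NF-κB, rose most. It was at 9.32, 8.3 and 5.56 FPKM with control siRNA, 80.01, 89.07 and 86.96 with siRNA.1, and 113.44, 94.53 and 102.84 with siRNA.2, log2 fold changes of 3.45 (SE 0.079) and 3.75 (SE 0.078). IL6, an inflammatory cytokine, was at 22.34, 16.12 and 19.23 FPKM with control siRNA, 49.41, 46.18 and 51.19 with siRNA.1, and 38.25, 38.36 and 40.94 with siRNA.2, log2 fold changes of 1.32 (adjusted p = 8.07e-91, edgeR) and 1.02 (adjusted p = 7.56e-54, edgeR). Neither gene's PARylator siRNA libraries overlapped with control siRNA.

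The neutrophil chemokines CXCL8, CXCL2 and CXCL3 also rose. CXCL8 was at 55.1 ± 5.68 FPKM with control siRNA, 85.7 ± 5.21 after siRNA.1 and 126 ± 5.91 after siRNA.2 (SD, n = 3), log2 fold changes of 0.61 and 1.18. CXCL2 had log2 fold changes of 1.20 and 1.83, from 33 to 40 counts in the control siRNA libraries. CXCL3 had 24 to 30 counts there and log2 fold changes of 0.71 (adjusted p = 0.0363, edgeR) and 1.39, of which the first was lost without control siRNA replicate 1 (adjusted p = 0.0914, edgeR) or 3 (0.103) and without siRNA.1 replicate 1 (0.339) or 3 (0.0714). It was also lost in 5 of 10 other settings, among them DESeq2 (adjusted p = 0.0711) and limma on log2(FPKM + 0.1) (adjusted p = 0.0952). The iron-binding protein gene LCN2 rose by 1.06 and 0.96, the stress gene IER3 by 0.53 and 0.70, and CD83 by 0.53 and 0.67, each with siRNA.1 and siRNA.2 in turn, on the log2 scale.

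TNFAIP2 and LTB fell with both siRNAs. TNFAIP2, a TNF-induced gene, was at 119.63, 112.45 and 114.22 FPKM with control siRNA, 58.61, 62.78 and 57.96 with siRNA.1, and 63.38, 60.5 and 62.69 with siRNA.2 (log2 fold changes -0.98 and -0.90). LTB, the lymphotoxin β subunit of a ligand that activates the alternative pathway, was at 24.93, 26 and 28.43 FPKM with control siRNA, 10.56, 7.71 and 8.62 with siRNA.1, and 11.85, 12.31 and 14.41 with siRNA.2. The test gave log2 fold changes of -1.58 for siRNA.1 (adjusted p = 1.91e-54, edgeR) and -1.05 for siRNA.2 (SE 0.094, adjusted p = 3.20e-27, edgeR). The PARylator siRNA libraries of both genes lay below the control siRNA libraries without overlap.

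The targets that rose and those that fell include genes with like κB matches close to their starts. They are shown so that their letters can be set beside those of the feedback genes above, with capitals again for the match. CXCL10 and IL6 rose and LTB fell.
CXCL10, chr4:76023655-76023684, minus strand: gaggagcagaGGGAAATTCCgtaacttgga
IL6, chr7:22727117-22727146, plus strand: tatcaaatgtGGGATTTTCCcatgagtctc
LTB, chr6:31582492-31582521, minus strand: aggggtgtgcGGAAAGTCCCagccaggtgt

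The 10 capital letters of the CXCL10 stretch are those of REL, which fell, though both its calls were lost with limma. The capitals of LTB are those of TNFAIP3, which rose with siRNA.1 and did not pass with siRNA.2. Any bearing of the letters on direction was not tested. These matches begin 177 bases before the start in CXCL10, 73 in IL6 and 86 in LTB. CXCL10 held another match with other letters 122 bases before its start, and LTB another 38 bases after its start, so the stretches shown are a choice. In GENCODE release 44 the stretch of CXCL10 lies outside its gene, that of IL6 is intronic to an upstream start, and that of LTB overlaps an exon by 26 bases.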

How the data were processed

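Poly(A)+ RNA of TE13 cells was sequenced on an Illumina NovaSeq 6000. According to the study's methods, the authors aligned reads with STAR to GRCh38 and counted them per gene with featureCounts. Versions, the annotation release and the strand setting are not given in the sources used here. The authors deposited raw counts and FPKM per gene in 1 table, together with the exonic length of each gene, which is a length and no measurement. Columns were mapped to libraries by name, with NC taken as control siRNA.

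The 10 genes, the lists and the rule for named genes were chosen with earlier results of these data known. Pathway list genes are named by rule where both comparisons with control siRNA pass with log2 fold changes of 0.5 or more in size, and other list and marker genes were named after their values were seen. The genes most like BIRC3 are those with the highest correlation over the 9 libraries, and 1 gene that this choice gave is not reported here.

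Counts of the 21395 genes whose mean over the libraries reached 0.1 FPKM were tested with edgeR 4.0.16 (quasi-likelihood, TMM, R 4.3.3) in 1 fit of the 3 conditions, with Benjamini-Hochberg adjustment over all of them at 0.05. FPKM are given as levels with SD, and 95% intervals use the normal approximation. Ratios were tested by exact permutation. Total counts of 15337917 to 22559998 limit low genes most. DESeq2 1.42.0 and limma 3.58.1 were alternatives, beside other scalings, filters, a replicate block and each library left out. The test was tried on simulated data with the same spread for all genes. Of 100 genes given an absolute log2 fold change of 0.5, edgeR recovered 71, and of 100 given 1 it recovered 97, with 3 false calls. Smaller changes can therefore be missed. Gene spans are as deposited, and GENCODE release 44 gave exons, with 3 of the 10 spans identical. RNA read from the opposite strand cannot be told apart where RELA, TNFAIP3 and BIRC3 overlap other genes, which covers at most 1.89% of their exonic bases.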

Additional observations from a re-analysis of the deposited data

Results flagged for a closer look

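The siRNAs share a target by their labels, and 4 of the 10 genes, 7 of the 11 pathway genes named by rule, and IL1B differed between siRNA.2 and siRNA.1 in the direct edgeR test, against 12.2% of all genes tested and 20.2% of those whose mean reached 1 FPKM. The 11 genes were picked for their size of change in these PARylator siRNA libraries against control siRNA. As log2 differences of siRNA.2 minus siRNA.1, NFKB1 was at 0.3775, RELA at -0.1663, TNFAIP3 at -0.1779 and BIRC3 at -0.2335. Against control siRNA, NFKB1 and TNFAIP3 passed with siRNA.1 and not with siRNA.2, RELA passed with neither, and BIRC3 fell with both.

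Among the targets, CXCL8 differed by 0.5664 (adjusted p = 1.37e-31, edgeR), CXCL2 by 0.6208 (adjusted p = 0.00742, edgeR), CXCL3 by 0.6835 (adjusted p = 0.0425, edgeR), IER3 by 0.1694 (adjusted p = 0.0366, edgeR), LTB by 0.534 (adjusted p = 9.99e-06, edgeR) and CXCL10 by 0.2959 (adjusted p = 1.23e-05, edgeR), all higher with siRNA.2. IL6 differed by -0.3041 (adjusted p = 1.25e-05, edgeR), higher with siRNA.1. The IER3 difference was lost in 8 of 10 other settings, CXCL3 in 6, CXCL10 in 3, and CXCL2 and IL6 in 2. CXCL2 was also lost without siRNA.1 replicate 2 (adjusted p = 0.106, edgeR) and without siRNA.2 replicate 2 (0.237), and RELA without siRNA.2 replicate 1 (0.0751). With each library left out, the highest adjusted p was 0.331 for CXCL3 and 0.266 for IER3, both lost in 4 of 9 refits.

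IL1B, named after its values were seen, went in opposite directions. It was at 64.94, 53.36 and 57.69 FPKM with control siRNA, 53.34, 53.56 and 53.89 with siRNA.1, and 66.64, 68.93 and 68.31 with siRNA.2. edgeR gave -0.16 for siRNA.1 on the log2 scale (adjusted p = 0.00519, edgeR) and 0.20 for siRNA.2 (adjusted p = 1.42e-04, edgeR), a difference of 0.3589 (adjusted p = 5.52e-12, edgeR). The fall with siRNA.1 was lost without control siRNA replicate 1 (adjusted p = 0.301, edgeR) and with limma.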

How the results depend on the processing

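Of the 18 calls on the 10 genes, 14 held in every refit, and 8 of 342 refits lost a call. With limma, REL lost its calls (adjusted p = 0.0778 and 0.0807 with siRNA.1, 0.219 and 0.211 with siRNA.2, at pseudocounts of 0.1 and 1), as did NFKBIE with siRNA.1 (0.0617 and 0.0642). RELA with siRNA.2 passed with a minimum of 1 FPKM (0.0471, edgeR) and without control siRNA replicate 2 (0.0492), and REL between the siRNAs passed without siRNA.1 replicate 2 (0.0469). limma called 1437 and 1414 genes between the siRNAs in place of 2603. The replicate numbers did not pair the libraries, with correlations of same-numbered deviations between -0.193 and 0.107, and a replicate block called 6215, 6359 and 2342 genes and changed no call on the 10 genes. With each library left out in turn, values that did not pass changed sign for RELB (-0.06584 to 0.1033 with siRNA.1, -0.08991 to 0.04603 with siRNA.2, -0.1175 to 0.03745 between the siRNAs), TNFAIP3 with siRNA.2 (-0.0179 to 0.06524), and NFKB2 (-0.03559 to 0.03151) and NFKBIE (-0.1912 to 0.0182) between the siRNAs.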
